A study of Mus musculus with 6 samples.

Results

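The unfolded protein response and the integrated stress response were followed through 10 transcripts in the mouse hypothalamus. Of these, 5 encode proteins of the endoplasmic reticulum (ER): Hspa5, Hsp90b1, Pdia6, Sdf2l1 and Herpud1. The other 5 are the transcription factor Atf4 and genes it is known to activate, Ddit3, Trib3, Asns and Phgdh. The members are the genes so named, found through the transcript of each array probe, and they are 10 of 22862 genes tested. They are measured by 13 probes, with 2 each for Pdia6, Atf4 and Phgdh and 1 for each of the other 7. Levels were measured on 6 single-colour arrays from male C57BL/6J mice aged 16 weeks, 2 arrays per genotype. Trsp-RIPKO mice carry floxed alleles of Trsp, the gene for the selenocysteine transfer RNA, together with RIP-Cre. Trsp-Ins1KO mice carry the same floxed alleles together with Ins1-Cre, and TrspFF mice carry the floxed alleles with no Cre named. All 3 genotypes thus share the floxed alleles, and mice with Cre alone are not analysed here. Both Cre genes are driven by promoters of insulin genes, which act in pancreatic beta cells, and RIP-Cre is known to act in some hypothalamic neurons as well. Tissue was taken whole, so fewer cells of a type and less RNA per cell cannot be told apart.

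The ER folds secreted and membrane proteins. When unfolded proteins gather there, the sensors IRE1, ATF6 and PERK are set free from the chaperone BiP, and the factors XBP1 and ATF6 raise the transcripts of chaperones and of the machinery that removes misfolded proteins. PERK and kinases that sense amino acid shortage, haem shortage or viral RNA phosphorylate eIF2α, which lowers protein synthesis in general while raising the translation of ATF4, and ATF4 then raises genes of amino acid supply and, with CHOP, of cell death. ATF4 is controlled largely at translation, so its transcript is not a measure of its protein.

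Promoters of the members are shown because some hold the letters through which these factors are known to act. Sequences are from RefSeq on build GRCm38.p6, and all 10 members had 1 promoter window each, from 250 bases before to 50 bases after the annotated start. Searched on both strands were the ER stress response element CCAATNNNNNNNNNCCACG, its second form, which is ATTGG, any base and CCACG, and TGATGNAA, the core of the C/EBP-ATF element. Matches are in capitals in the lines that follow, each read 5′ to 3′ on the strand of its gene.
Hspa5: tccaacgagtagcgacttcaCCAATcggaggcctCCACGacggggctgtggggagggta
Hsp90b1: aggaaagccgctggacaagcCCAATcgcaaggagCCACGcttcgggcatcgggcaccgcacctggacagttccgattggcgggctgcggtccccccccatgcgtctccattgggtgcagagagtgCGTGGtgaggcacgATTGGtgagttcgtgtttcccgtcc
Pdia6: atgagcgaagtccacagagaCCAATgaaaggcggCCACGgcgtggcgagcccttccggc
Herpud1: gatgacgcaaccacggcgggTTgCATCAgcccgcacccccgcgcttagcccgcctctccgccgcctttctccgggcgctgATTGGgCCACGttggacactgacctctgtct
Asns: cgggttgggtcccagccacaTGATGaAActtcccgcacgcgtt
Trib3: agcagcagattagctcaggtTTaCATCA

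The Hspa5 stretch lies at chr2:34772005-34772063 on the plus strand, just upstream of the gene, and holds 1 element. The Hsp90b1 stretch lies at chr10:86705513-86705676 on the minus strand and holds 2 elements, the second of them on the opposite strand. The Pdia6 stretch lies at chr12:17266471-17266529 on the plus strand. In Herpud1, at chr8:94386297-94386407 on the plus strand, a C/EBP-ATF core on the opposite strand is followed by the second form of the ER element. The Asns stretch ends at the base before the start, at chr6:7693210-7693252 on the minus strand. The Trib3 core lies on the opposite strand within the transcribed part, and the stretch runs over chr2:152344039-152344066 on the minus strand. Neither element nor core had these exact letters in the windows of Sdf2l1, Ddit3, Atf4 and Phgdh. The ER element was present in 39 of all 32851 promoter windows of the table (0.119%), its second form in 12 (0.0365%) and the C/EBP-ATF core in 1304 (3.97%). Among the members the counts were 3 of 10, 1 of 10 and 3 of 10. A match describes letters and is no evidence of a bound factor.

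**Figure D1:**
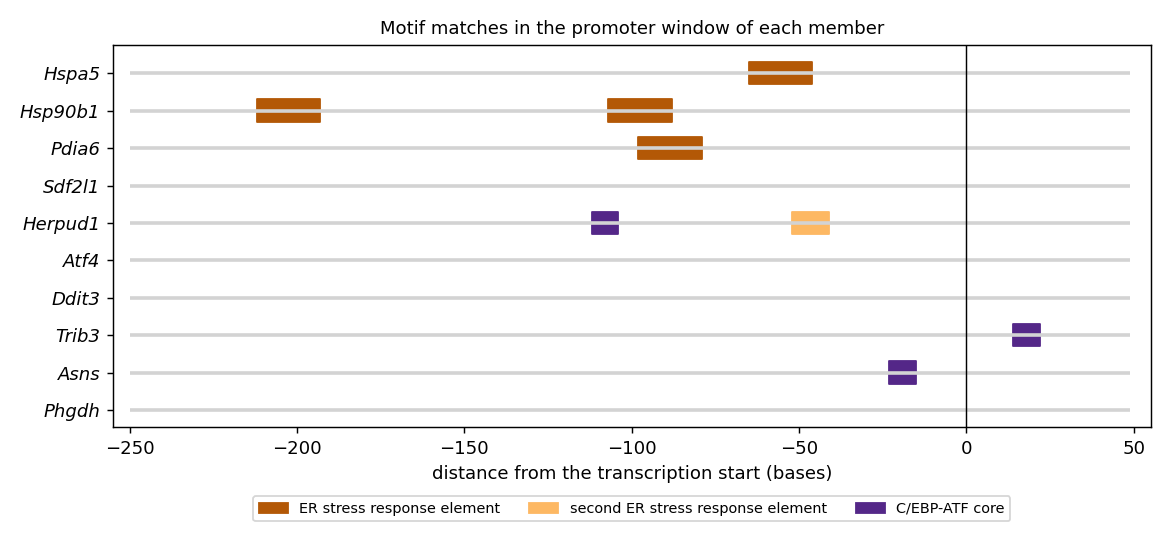
Positions of the motif matches in the promoter window of each member, with distance from the annotated transcription start in bases on the horizontal axis. Orange boxes are the ER stress response element, light orange its second form and purple boxes the C/EBP-ATF core. ER elements lie upstream of Hspa5, Hsp90b1, Pdia6 and Herpud1, and the core lies at Herpud1, Asns and Trib3.

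Levels are log2 values of the background-subtracted spot signal relative to the 75th percentile of the array, at which the level is 0. Levels of different probes cannot be set against each other. The 75th percentile lay between 1391 and 2137 signal units, 68.9% to 72.0% of probes were well above background and no spot was saturated, and the number of arrays limits the precision. All 13 member probes were well above background on all 6 arrays. Labels do not say whether the 2 arrays of a genotype came from separate animals, so p-values measure only how far these arrays scatter, and that scatter may be technical. The TrspFF arrays were scanned on 1 slide and the 4 knockout arrays on another, so slide and genotype cannot be told apart in any comparison with TrspFF, while the comparison of the knockouts lies within 1 slide. The authors' deposited value table and the scanner files give the knockouts opposite names. Table columns named for Trsp-RIPKO followed the scanner arrays of Trsp-Ins1KO (Pearson r over probes from 0.988 to 0.989) and the reverse (0.983 to 0.990), while r against arrays of their own name was from -0.24 to -0.21. Names here are those of the scanner files. Under the names of the table, the values of Trsp-RIPKO and Trsp-Ins1KO are swapped and their difference changes sign, and the comparison of both knockouts with TrspFF does not depend on the names. Trsp has 0 probes, so its deletion could not be checked. Of 12 hypothalamic markers 11 were measured well enough to test, and Otp was not.

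No member passed the adjusted threshold in any of the comparisons. Each member difference in what follows is thus a measured value that the test did not separate from the spread between arrays. The threshold was a Benjamini-Hochberg adjusted p of 0.05 over all genes in limma. In Trsp-RIPKO against TrspFF 0 of 10 members passed, where 1.66% of all tested genes did, and in Trsp-Ins1KO against TrspFF 0 of 10 passed, where 1.82% did. In both knockouts together against TrspFF 0 of 10 passed beside 3.70% of all genes, and in Trsp-RIPKO against Trsp-Ins1KO 0 of 10 beside 0.0175%. At an unadjusted p of 0.05 there were 3 members in Trsp-RIPKO against TrspFF, all lower, beside 23.9% of all genes, of which 9.71% higher and 14.2% lower. In Trsp-Ins1KO against TrspFF there were 5, of which 4 were higher and 1 lower, beside 13.3% and 12.6% of all genes (26.0% in all). With both knockouts together there were 4, of which 2 were higher and 2 lower, beside 12.1% and 14.0% (26.1% in all). In Trsp-RIPKO against Trsp-Ins1KO there were 5, all lower, beside 18.4%, of which 7.62% higher and 10.8% lower.

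**Figure D2:**
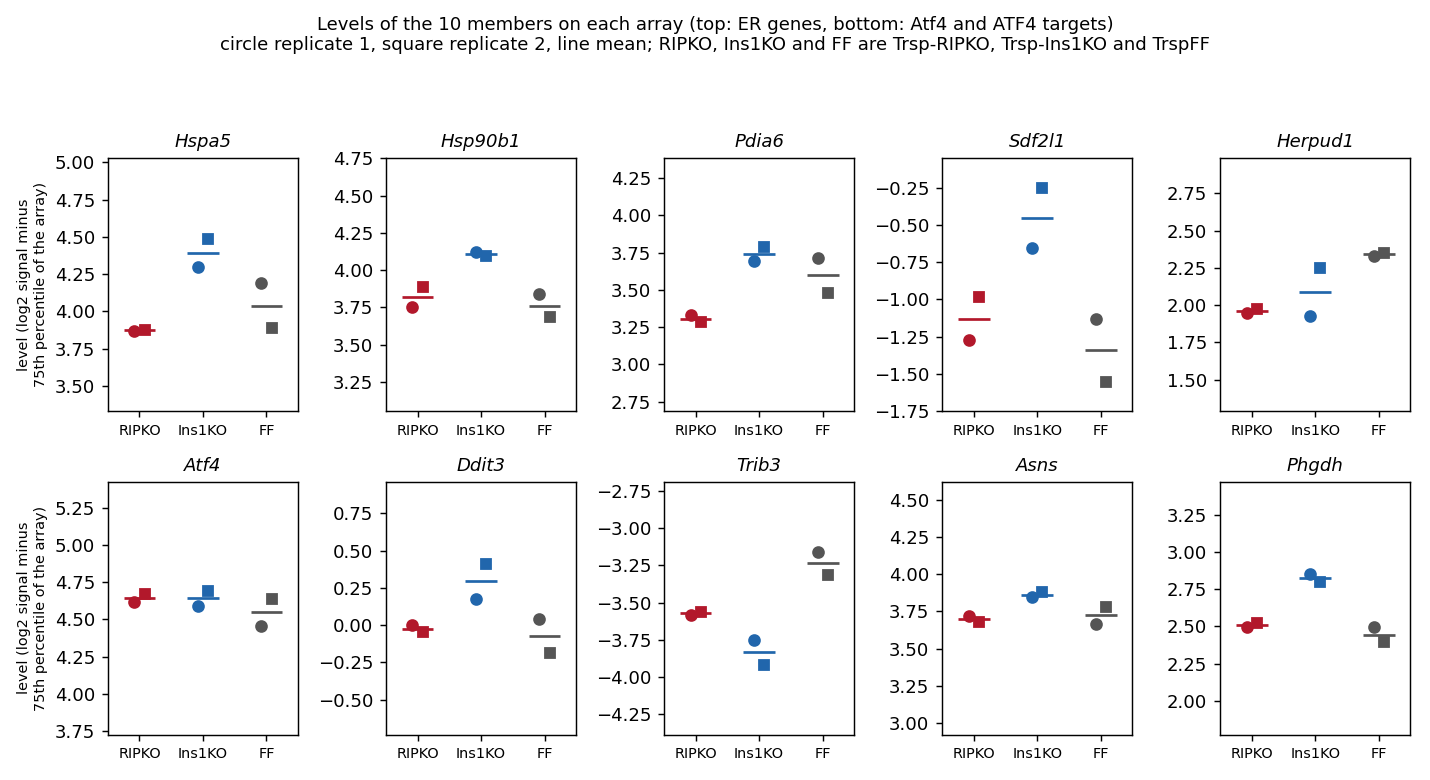
Level of each member on every array (log2 signal minus the 75th percentile of the array), with Trsp-RIPKO, Trsp-Ins1KO and TrspFF from left to right. Circles are replicate 1, squares replicate 2 and lines group means, and every panel spans the same number of log2 units around its own values. Hspa5, Hsp90b1, Sdf2l1, Ddit3, Asns and Phgdh have both Trsp-Ins1KO arrays on top, and Herpud1 and Trib3 have both TrspFF arrays on top.

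Hspa5 encodes BiP, the main Hsp70 chaperone of the ER, whose promoter stretch with 1 ER element is printed with the sequences. Its levels were 3.87 and 3.87 in Trsp-RIPKO, 4.29 and 4.49 in Trsp-Ins1KO, and 4.19 and 3.89 in TrspFF. Both Trsp-RIPKO arrays lay just under the lower TrspFF array and both Trsp-Ins1KO arrays above the higher one, so neither knockout overlapped TrspFF. The difference from TrspFF was -0.17 ± 0.14 (SE) in Trsp-RIPKO and 0.35 ± 0.14 in Trsp-Ins1KO, with adjusted p = 0.491 and 0.195 in limma. The TrspFF arrays themselves were further apart than the arrays of either knockout. Hsp90b1 encodes GRP94, the ER member of the Hsp90 family. It had levels of 3.75 and 3.89 in Trsp-RIPKO, 4.12 and 4.10 in Trsp-Ins1KO, and 3.84 and 3.68 in TrspFF. Trsp-RIPKO overlapped TrspFF, while both Trsp-Ins1KO arrays were above all others. The difference of Hsp90b1 from TrspFF was 0.060 ± 0.10 in Trsp-RIPKO (adjusted p = 0.735) and 0.35 ± 0.10 in Trsp-Ins1KO (adjusted p = 0.128).

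Pdia6 is a protein disulfide isomerase that also acts on the ER sensors. Its brighter probe, which stands for the gene in the test, read 3.33 and 3.28 in Trsp-RIPKO, 3.70 and 3.79 in Trsp-Ins1KO, and 3.72 and 3.48 in TrspFF. Trsp-RIPKO was the lowest group and Trsp-Ins1KO overlapped TrspFF. The difference from TrspFF was -0.29 ± 0.11 in Trsp-RIPKO (adjusted p = 0.208) and 0.15 ± 0.11 in Trsp-Ins1KO (adjusted p = 0.443). The other Pdia6 probe read 0.59 and 0.69 in Trsp-RIPKO, 0.78 and 0.92 in Trsp-Ins1KO, and 0.52 and 0.45 in TrspFF. On it both knockouts were above TrspFF, by 0.15 ± 0.097 in Trsp-RIPKO and 0.36 ± 0.097 in Trsp-Ins1KO, so the probes disagreed on the sign of Trsp-RIPKO against TrspFF. They agreed that Trsp-RIPKO was below Trsp-Ins1KO.

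Sdf2l1 encodes an ER protein that works with the chaperones and is a sensitive transcript of the unfolded protein response. Its levels were -1.27 and -0.98 in Trsp-RIPKO, -0.65 and -0.25 in Trsp-Ins1KO, and -1.13 and -1.55 in TrspFF. Both Trsp-Ins1KO arrays were above all others, Trsp-RIPKO overlapped TrspFF, and the arrays of a genotype lay further apart than for the other members. The difference from TrspFF was 0.21 ± 0.22 in Trsp-RIPKO (adjusted p = 0.580) and 0.89 ± 0.22 in Trsp-Ins1KO (adjusted p = 0.106). The value in Trsp-RIPKO was 0.42 without TrspFF replicate 1 and 0.0030 without replicate 2. That in Trsp-Ins1KO was the largest of any member in any comparison. Herpud1 encodes an ER membrane protein of ER-associated degradation. It had 1.95 and 1.97 in Trsp-RIPKO, 1.92 and 2.25 in Trsp-Ins1KO, and 2.33 and 2.35 in TrspFF. All 4 knockout arrays were below both TrspFF arrays, and the knockouts overlapped each other. The difference of Herpud1 was -0.38 ± 0.13 in Trsp-RIPKO (adjusted p = 0.177) and -0.25 ± 0.13 in Trsp-Ins1KO (adjusted p = 0.282), against TrspFF. That in Trsp-Ins1KO was -0.42 without Trsp-Ins1KO replicate 2 and -0.089 without replicate 1.

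Atf4 had nearly the same level in all groups on its brighter probe. This probe read 4.61 and 4.67 in Trsp-RIPKO, 4.59 and 4.69 in Trsp-Ins1KO, and 4.46 and 4.64 in TrspFF, and both knockouts overlapped TrspFF. The difference from TrspFF was 0.094 ± 0.10 in each knockout, with adjusted p = 0.596 in Trsp-RIPKO and 0.582 in Trsp-Ins1KO. The dimmer Atf4 probe had the opposite sign, with -0.76 and -0.50 in Trsp-RIPKO, -0.61 and -0.59 in Trsp-Ins1KO, and -0.46 and -0.41 in TrspFF. Ddit3 encodes CHOP, a factor downstream of ATF4. It had 0.0018 and -0.050 in Trsp-RIPKO, 0.18 and 0.41 in Trsp-Ins1KO, and 0.044 and -0.19 in TrspFF. Both Trsp-Ins1KO arrays were above all others and Trsp-RIPKO lay within the TrspFF range. The difference of Ddit3 from TrspFF was 0.047 ± 0.13 in Trsp-RIPKO (adjusted p = 0.845) and 0.37 ± 0.13 in Trsp-Ins1KO (adjusted p = 0.173).

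Trib3 encodes a pseudokinase that ATF4 and CHOP are known to induce, and it is the member with the smallest adjusted p. Its levels were -3.58 and -3.56 in Trsp-RIPKO, -3.75 and -3.92 in Trsp-Ins1KO, and -3.16 and -3.32 in TrspFF. All 4 knockout arrays lay below both TrspFF arrays, on the side opposite to Ddit3 and Phgdh in Trsp-Ins1KO. The difference from TrspFF was -0.33 ± 0.11 in Trsp-RIPKO (adjusted p = 0.161), -0.60 ± 0.11 in Trsp-Ins1KO (adjusted p = 0.0705) and -0.47 ± 0.091 with both knockouts together (adjusted p = 0.0667). Asns encodes asparagine synthetase. Its levels were 3.72 and 3.68 in Trsp-RIPKO, 3.84 and 3.88 in Trsp-Ins1KO, and 3.67 and 3.78 in TrspFF. Trsp-RIPKO lay within the TrspFF range and both Trsp-Ins1KO arrays above it. Its difference from TrspFF was -0.024 ± 0.086 in Trsp-RIPKO (adjusted p = 0.882) and 0.14 ± 0.086 in Trsp-Ins1KO (adjusted p = 0.355).

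Phgdh encodes the enzyme of the committed step of serine synthesis. Its brighter probe read 2.49 and 2.52 in Trsp-RIPKO, 2.85 and 2.80 in Trsp-Ins1KO, and 2.49 and 2.39 in TrspFF. Both Trsp-Ins1KO arrays stood above the other 4. The dimmer probe read 2.13 and 2.10 in Trsp-RIPKO, 2.29 and 2.30 in Trsp-Ins1KO, and 1.98 and 1.94 in TrspFF, in the same order of groups. On the brighter probe the difference from TrspFF was 0.066 ± 0.084 in Trsp-RIPKO (adjusted p = 0.651) and 0.38 ± 0.084 in Trsp-Ins1KO (adjusted p = 0.0921). With a variance trend and robust fit in limma the same difference of Phgdh in Trsp-Ins1KO had adjusted p = 0.0430, and it was the only member and comparison to pass under any setting run.

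**Figure D3:**
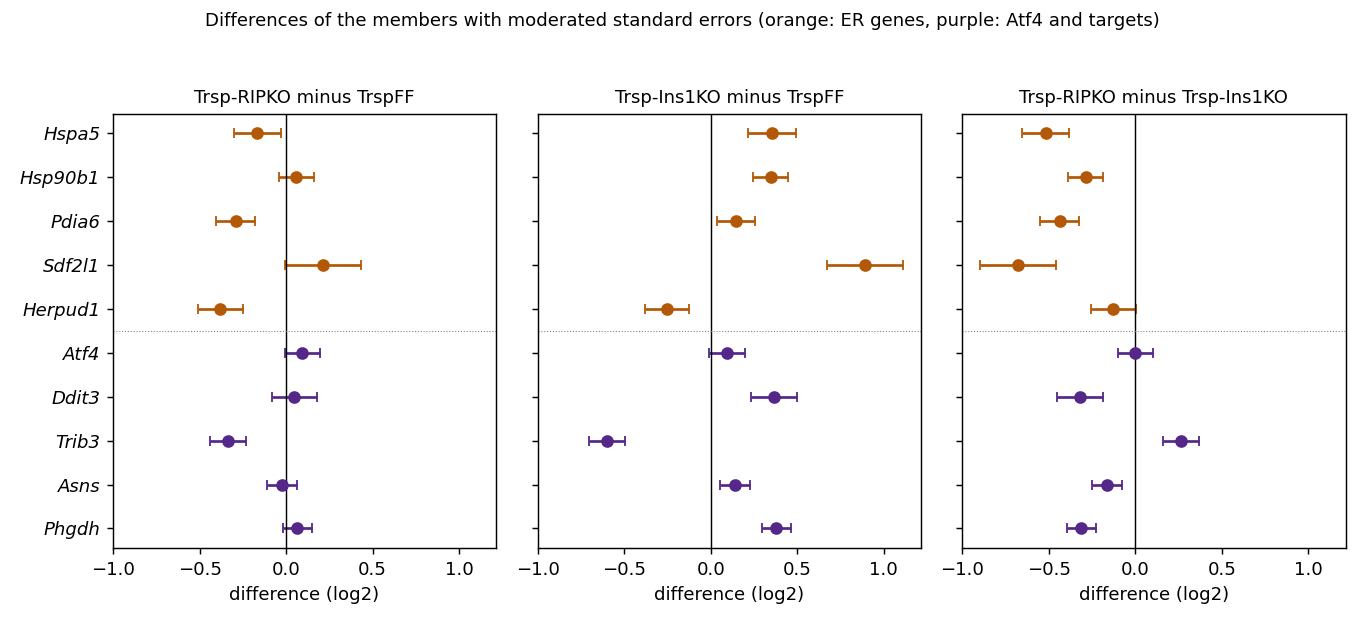
Differences of the members on the log2 scale in Trsp-RIPKO minus TrspFF, Trsp-Ins1KO minus TrspFF and Trsp-RIPKO minus Trsp-Ins1KO, from left to right. Points are fitted differences and bars 1 moderated standard error, with ER genes in orange above the dotted line and Atf4 with its targets in purple below it. All 5 ER genes are to the left of 0 in the panel on the right, from -0.68 to -0.13.

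Set side by side, the ER genes had a median difference of -0.17 in Trsp-RIPKO against TrspFF, with 2 of 5 above 0, and 0.35 in Trsp-Ins1KO against TrspFF, with 4 of 5 above 0. Atf4 and its targets had medians of 0.047 and 0.14 in the same comparisons, with 3 of 5 and 4 of 5 above 0. The medians over all tested genes were -0.014 and 0.024, with 11007 and 12143 of 22862 genes above 0. These comparisons use the same TrspFF arrays, and the ER medians moved with them. Without TrspFF replicate 1 they were -0.014 in Trsp-RIPKO and 0.43 in Trsp-Ins1KO, and without replicate 2 they were -0.32 and 0.20. In both knockouts together against TrspFF the median was 0.094 for each class and 0.0085 over all genes. That of the ER genes was 0.25 without TrspFF replicate 1 and -0.058 without replicate 2. Groups did not overlap for 5 of 10 members in Trsp-RIPKO against TrspFF (1 higher and 4 lower), where 58.3% of all genes did not overlap, 28.0% higher and 30.2% lower. In Trsp-Ins1KO against TrspFF they did not overlap for 8 members (6 higher and 2 lower), beside 58.2% of all genes, 31.7% higher and 26.4% lower. With both knockouts together 3 members did not overlap TrspFF, beside 34.3% of all genes, 16.9% higher and 17.5% lower. Herpud1 and Trib3 were lower and Phgdh was higher, the last by less than 0.01 between its nearest arrays.

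The comparison of the Trsp knockouts with each other is the one made within a single slide. In it Trsp-RIPKO was below Trsp-Ins1KO for 9 of 10 members, all but Trib3, although the difference of Atf4 was only -0.00061 ± 0.10. Trsp-RIPKO was below for 13235 of all 22862 genes. The ER genes differed by a median of -0.44 and Atf4 with its targets by -0.16, beside -0.048 over all tested genes. The difference was -0.68 ± 0.22 for Sdf2l1, -0.52 ± 0.14 for Hspa5, -0.44 ± 0.11 for Pdia6 and -0.31 ± 0.084 for Phgdh, each with adjusted p = 0.263 in limma. It was -0.29 ± 0.10 for Hsp90b1 (adjusted p = 0.264), -0.32 ± 0.13 for Ddit3 (adjusted p = 0.277) and -0.16 ± 0.086 for Asns (adjusted p = 0.343). Herpud1 differed by -0.13 ± 0.13 (adjusted p = 0.587) and Trib3, on the other side, by 0.26 ± 0.11 (adjusted p = 0.273). The groups did not overlap for 8 of 10 members, with 7 lower and 1 higher in Trsp-RIPKO, beside 58.6% of all genes, of which 35.8% lower and 22.9% higher. Among the ER genes 4 of 5 were lower without overlap, Herpud1 being the exception.

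Markers of tissue makeup differed between the same arrays. For each list of markers, levels were taken off the log2 scale, added, and put back on it as the summed level. The brightest markers thus weigh most in it, and it is set side by side only between arrays. The summed level of the 11 hypothalamic markers was 6.44 to 6.79 in Trsp-RIPKO, 7.30 to 7.32 in Trsp-Ins1KO and 6.50 to 6.60 in TrspFF. In Trsp-RIPKO against Trsp-Ins1KO 10 of these 11 were lower, beside 13235 of all 22862 genes, and the median over the 11 was -0.65. Without overlap 6 of the 11 were lower and 1 higher, beside 35.8% and 22.9% of all genes. The 6 markers of cortex and hippocampus were all higher in Trsp-RIPKO than in Trsp-Ins1KO without overlap, beside 22.9% of all genes. Their summed level was 2.00 to 2.13 in Trsp-RIPKO, -0.92 to 1.10 in Trsp-Ins1KO and 1.22 to 1.75 in TrspFF. The summed level of the 10 choroid plexus markers was 1.85 on Trsp-Ins1KO replicate 2, against 5.67 on replicate 1, 5.89 to 6.12 in Trsp-RIPKO and 5.84 to 6.57 in TrspFF. Markers of vessels were higher in Trsp-RIPKO than in Trsp-Ins1KO without overlap for 5 of 5 genes of pericytes and smooth muscle and 5 of 6 of endothelial cells. The share of all genes so placed was again 22.9%. The summed level of the pericyte and smooth muscle markers was 0.74 to 0.91 in Trsp-RIPKO, 0.18 to 0.21 in Trsp-Ins1KO and 0.56 to 0.85 in TrspFF, and that of the endothelial markers was 2.70 to 2.84, 2.12 to 2.26 and 2.43 to 2.78 in the same order. All 6 striatal markers were lower than in TrspFF without overlap in each knockout, beside 30.2% of all genes in Trsp-RIPKO and 26.4% in Trsp-Ins1KO. Their summed levels were 2.62 to 2.77 in Trsp-RIPKO, 2.51 to 2.62 in Trsp-Ins1KO and 3.06 to 3.43 in TrspFF. At the adjusted threshold 1 of the 6 passed in Trsp-RIPKO, 2 in Trsp-Ins1KO and 2 with both knockouts together, each against TrspFF. The shares of all genes passing were 1.66%, 1.82% and 3.70%. Of 6 oligodendrocyte markers 5 were higher in Trsp-RIPKO than in Trsp-Ins1KO without overlap, beside 22.9% of all genes. Of 5 astrocyte and 5 microglial markers 3 each were lower without overlap, beside 35.8%. Of 5 neuronal markers 3 were higher and 2 lower without overlap, beside 22.9% and 35.8%. On TrspFF replicate 1 the summed level of the 6 meningeal markers was 3.38, against 2.86 on replicate 2. It was 2.62 to 2.86 in Trsp-RIPKO, 2.82 on Trsp-Ins1KO replicate 1 and 2.05 on Trsp-Ins1KO replicate 2. The summed level of 2 tested pituitary markers was -1.53 on TrspFF replicate 1 against -3.83 on TrspFF replicate 2, with 1 not well above background on knockout arrays. The part of tissue makeup in the differences of the members was not tested. Without Trsp-Ins1KO replicate 2 the difference of Trsp-RIPKO from Trsp-Ins1KO was -0.42 for Hspa5, -0.39 for Pdia6, -0.48 for Sdf2l1, -0.30 for Hsp90b1 and -0.34 for Phgdh. Only the sign of Herpud1 (0.035) and Atf4 (0.050) turned without that array. With a single Trsp-Ins1KO array left, 7 of 10 members were lower without overlap, beside 46.9% of all genes, and 3 were higher, beside 33.9%. Leaving out an array cannot lower such counts, so they do not test the part of that array.

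Beyond the members, 81 further genes of these pathways were listed in 5 groups and 77 of them could be tested. Values are those of the brightest kept probe, and of the genes named below Aars, Cth and Psph have 2 probes each. The chaperone gene Dnajb11 and the secreted hormone gene Fgf21 were not well above background on any array, Pycr1 had 0 probes, and the spot of Xbp1 was left out on Trsp-RIPKO replicate 2 by a quality flag. Of the 77, 0 passed the adjusted threshold in Trsp-RIPKO against TrspFF, 0 in Trsp-Ins1KO against TrspFF and 0 in Trsp-RIPKO against Trsp-Ins1KO. With both knockouts together 1 of 77 passed, where 3.70% of all genes did. That gene was Cebpg, a C/EBP factor that pairs with ATF4, which fell in the knockouts by 0.57 ± 0.086 on the log2 scale (adjusted p = 0.0435). Cebpg had -1.85 and -1.90 in Trsp-RIPKO, -2.11 and -1.94 in Trsp-Ins1KO, and -1.33 and -1.42 in TrspFF, and all 4 knockout arrays were below both TrspFF arrays. It did not pass when any 1 of the 6 arrays was left out, nor with quantile normalization, median scaling or no filter.

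The list of ER folding genes other than the members had a median above 0 in both knockouts against TrspFF, though 0 of its 18 tested genes passed. Its median difference was 0.26 in Trsp-Ins1KO against TrspFF, where 16 of 18 were above 0 and 15 were higher without overlap, beside 31.7% of all genes. The median was 0.071 in Trsp-RIPKO against TrspFF, where 14 of 18 were above 0 and 8 were higher without overlap, beside 28.0% of all genes. Of all 22862 genes 12143 were above 0 in Trsp-Ins1KO against TrspFF and 11007 in Trsp-RIPKO against TrspFF. In Trsp-RIPKO against Trsp-Ins1KO the median was -0.17, and 12 of 18 were lower without overlap beside 35.8% of all genes. Without Trsp-Ins1KO replicate 2 the counts were 15 of 18 and 12 of 18, beside 42.0% and 46.9% of all genes. Such counts cannot fall when an array is left out, so they do not test the part of that array. As at the members, the hypothalamic markers lay in the same direction, and their part was not tested.

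Pdia4, a disulfide isomerase, had -1.94 and -1.60 in Trsp-RIPKO, -0.90 and -1.12 in Trsp-Ins1KO, and -1.50 and -2.14 in TrspFF. Both Trsp-Ins1KO arrays were the highest and Trsp-RIPKO lay within the TrspFF range. Its difference was 0.81 ± 0.26 in Trsp-Ins1KO against TrspFF (adjusted p = 0.146) and -0.76 ± 0.26 in Trsp-RIPKO against Trsp-Ins1KO (adjusted p = 0.263). Calr, the calcium-binding lectin chaperone calreticulin, had 3.18 and 3.26 in Trsp-RIPKO, 3.36 and 3.59 in Trsp-Ins1KO, and 3.13 and 2.87 in TrspFF, so that the groups stood in 3 steps with no overlap. Its difference from TrspFF was 0.22 in Trsp-RIPKO (adjusted p = 0.383) and 0.47 ± 0.14 in Trsp-Ins1KO (adjusted p = 0.129). Fkbp2, an ER prolyl isomerase, had 3.99 and 4.02 in Trsp-RIPKO, 4.38 and 4.37 in Trsp-Ins1KO, and 4.11 and 3.84 in TrspFF, and only Trsp-Ins1KO stood apart from TrspFF. Manf, a secreted ER stress protein with neurotrophic activity, had 0.92 and 1.07 in Trsp-RIPKO, 1.36 and 1.54 in Trsp-Ins1KO, and 1.32 and 1.02 in TrspFF. Its difference between Trsp-RIPKO and Trsp-Ins1KO was -0.46 ± 0.14 (adjusted p = 0.263). Against this order, Dnajc3, a co-chaperone that inhibits eIF2α kinases, differed by -0.69 in Trsp-Ins1KO against TrspFF (adjusted p = 0.244), and Erp44 by -0.27 ± 0.078 with both knockouts together (adjusted p = 0.124).

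Genes of ER-associated degradation had medians near that of all genes, with -0.073 in Trsp-RIPKO against TrspFF, 0.094 in Trsp-Ins1KO against TrspFF and -0.045 in Trsp-RIPKO against Trsp-Ins1KO over 12 tested genes. Derl3, a derlin of the export channel, had -2.68 and -2.28 in Trsp-RIPKO, -1.74 and -1.45 in Trsp-Ins1KO, and -2.00 and -2.74 in TrspFF. The Trsp-Ins1KO arrays were the highest, as for Sdf2l1 and Pdia4, and the difference was 0.78 ± 0.30 against TrspFF (adjusted p = 0.189) and -0.89 ± 0.30 for Trsp-RIPKO against Trsp-Ins1KO (adjusted p = 0.263). The lectin gene Os9 was 0.24 ± 0.086 above TrspFF in Trsp-RIPKO and 0.29 ± 0.086 in Trsp-Ins1KO (adjusted p = 0.191 and 0.134).

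Over the 10 tested sensors, kinases and their processing enzymes the medians were -0.021 in Trsp-RIPKO against TrspFF, 0.014 in Trsp-Ins1KO against TrspFF and 0.0034 in Trsp-RIPKO against Trsp-Ins1KO. The sensor Atf6 had -1.17 and -1.12 in Trsp-RIPKO, -1.46 and -1.46 in Trsp-Ins1KO, and -1.86 and -1.62 in TrspFF. For Atf6 the groups stood apart with Trsp-RIPKO on top. Its difference from TrspFF was 0.59 ± 0.11 in Trsp-RIPKO (adjusted p = 0.0771) and 0.28 ± 0.11 in Trsp-Ins1KO (adjusted p = 0.198).

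The 25 tested targets of ATF4 and the integrated stress response were spread to both sides, with medians of -0.023 in Trsp-RIPKO against TrspFF, 0.076 in Trsp-Ins1KO against TrspFF and 0.011 in Trsp-RIPKO against Trsp-Ins1KO. In Trsp-Ins1KO against TrspFF 10 were higher and 7 lower without overlap, beside 31.7% and 26.4% of all genes. Chac1, an enzyme that breaks down glutathione, had 0.71 and 0.73 in Trsp-RIPKO, 0.79 and 1.02 in Trsp-Ins1KO, and 0.49 and 0.39 in TrspFF, and all knockout arrays were above TrspFF. Its difference was 0.47 ± 0.11 in Trsp-Ins1KO against TrspFF (adjusted p = 0.0979). Cth, an enzyme of cysteine synthesis, was above TrspFF by 0.52 ± 0.13 in Trsp-RIPKO (adjusted p = 0.123) and 0.51 ± 0.13 in Trsp-Ins1KO (adjusted p = 0.115). Slc7a1, a transporter of cationic amino acids, differed from TrspFF by -0.43 ± 0.11 in Trsp-RIPKO (adjusted p = 0.121) and -0.47 ± 0.11 in Trsp-Ins1KO (adjusted p = 0.0956). Atf3 and the serine pathway enzyme Psph were lower in Trsp-RIPKO than in Trsp-Ins1KO, by -0.69 ± 0.22 and -0.27 ± 0.080 (adjusted p = 0.263 for both).

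Aminoacyl tRNA synthetases, many of which ATF4 is known to raise, had medians of -0.040, 0.017 and -0.047 in Trsp-RIPKO against TrspFF, Trsp-Ins1KO against TrspFF and Trsp-RIPKO against Trsp-Ins1KO, over 12 tested genes. Aars had 3.15 and 3.17 in Trsp-RIPKO, 3.20 and 3.25 in Trsp-Ins1KO, and 2.80 and 2.84 in TrspFF. Eprs lay on the other side, with -1.25 and -1.12 in Trsp-RIPKO, -0.97 and -0.96 in Trsp-Ins1KO, and -0.29 and -0.56 in TrspFF. Neither gene had a knockout array within the TrspFF range. With both knockouts together the difference was 0.37 ± 0.068 for Aars (adjusted p = 0.0598) and -0.65 ± 0.11 for Eprs (adjusted p = 0.0501).

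**Figure D4:**
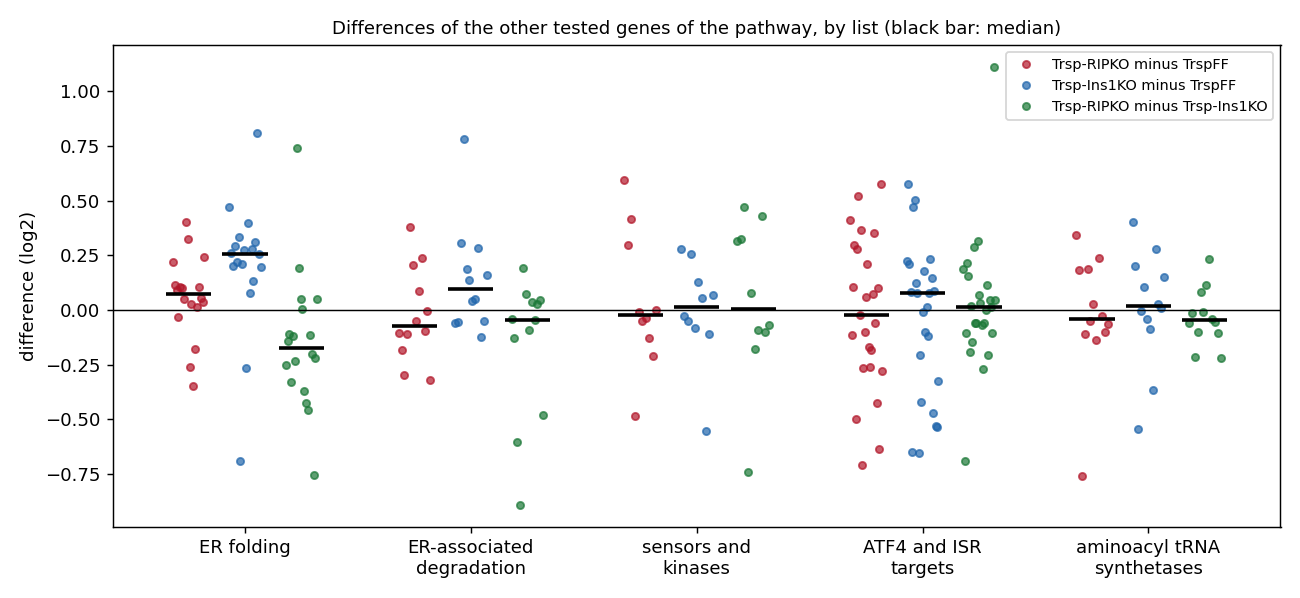
Differences (log2) of the 77 tested pathway genes other than the members, by list along the horizontal axis. Each point is a gene and each bar the median of its list, with Trsp-RIPKO minus TrspFF in red, Trsp-Ins1KO minus TrspFF in blue and Trsp-RIPKO minus Trsp-Ins1KO in green. ER folding has medians of 0.071, 0.26 and -0.17, and the medians of the other lists lie between -0.073 and 0.094.

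The ER element printed for Hspa5, Hsp90b1 and Pdia6 was also present at 7 of the 67 listed pathway genes with a promoter window. In Trsp-Ins1KO against TrspFF their differences were 0.78 for Derl3, 0.47 for Calr, 0.29 for Creld2, 0.27 for Ero1b, 0.26 for Canx, -0.051 for Syvn1 and -0.69 for Dnajc3, none of which passed. In Trsp-RIPKO against Trsp-Ins1KO they were -0.89 for Derl3, -0.33 for Creld2, -0.25 for Calr, -0.14 for Canx, 0.048 for Ero1b, 0.047 for Syvn1 and 0.74 for Dnajc3. In Trsp-Ins1KO against TrspFF the members with the element differed by 0.35 for Hspa5, 0.35 for Hsp90b1 and 0.15 for Pdia6. In Trsp-RIPKO against Trsp-Ins1KO they differed by -0.52, -0.29 and -0.44 in the same order. Sdf2l1, whose window lacks these letters, differed by 0.89 and -0.68 in these comparisons. Whether the element has a part in the differences was not tested.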

How the data were processed

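Hypothalamic RNA was measured on 6 single-colour arrays, and groups follow the labels of the scanner files. Per the file headers, the authors' Feature Extraction 10.7.3.1 gave background-subtracted intensity values, one per spot, with an annotation on mm9. Log2 values in the authors' deposited table, with a scaling that is not given here, served as an alternative. Flagged and control spots were left out, spots of a probe were averaged, and log2 intensity minus the 75th percentile (log2) of the array was the level. Probes were kept (28064 of 39429) where both arrays of some group read well above background, 26055 probes had a symbol through the GRCm38.p6 gene table, and the brightest kept probe stood for a gene. Groups were compared in limma 3.58.1 under R 4.3.3 (lmFit on all 6 arrays, eBayes, Benjamini-Hochberg adjustment over 22862 genes at 0.05). Differences had 4.87 degrees of freedom and a median standard error of 0.127. The fit was tested on simulated data with known differences. Figures were drawn with matplotlib 3.10.9.

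The members, the pathway and marker lists, the motifs and the tests were chosen with earlier results of these data known. Named are all members, list genes past the threshold or else up to 4 with the smallest p per list, and the 5 genes most like each class, together with the listed genes that hold the ER element and those that could not be tested. Alternatives were normexp (offset 50, on median signals, since the files hold no mean signal), quantile and median scaling, the value table, other filters, other treatment of probes, robust eBayes with a trend, a fit of the compared groups alone, a replicate block and leaving out each array. Chosen after seeing the data were the value table by its own names and the counts of groups without overlap when Trsp-Ins1KO replicate 2 is left out. Replicate numbers are given by the labels, but deviations of equally numbered arrays correlated by -0.03, 0.09 and -0.02, so numbers were not taken as pairs.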

Additional observations from a re-analysis of the deposited data

Results flagged for a closer look

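For 3 members every Trsp-RIPKO array lay on one side of the TrspFF mean and every Trsp-Ins1KO array on the other. They were picked by these positions, and the share of all genes so placed was not counted. The difference between the knockouts was tested in limma. Hspa5 stood at -0.17 and -0.16 from the TrspFF mean on the Trsp-RIPKO arrays and at 0.26 and 0.45 on the Trsp-Ins1KO arrays, and the knockouts differed by -0.52 (adjusted p = 0.263). Pdia6, on its brighter probe, stood at -0.27 and -0.31 in Trsp-RIPKO and at 0.10 and 0.19 in Trsp-Ins1KO. On this probe the knockouts differed by -0.44 (adjusted p = 0.263). The other Pdia6 probe had both knockouts above TrspFF and was not split in this way. Asns stood at -0.0016 and -0.046 in Trsp-RIPKO and at 0.12 and 0.16 in Trsp-Ins1KO, and the knockouts differed by -0.16 (adjusted p = 0.343). None of these 3 differences passed the threshold, and the order of the knockouts turns round under the names of the value table.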

How the results depend on the processing

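No member passed under any alternative except Phgdh in Trsp-Ins1KO against TrspFF with eBayes trend and robust, which made the count there 1. Genes passing of all tested, in the order Trsp-RIPKO against TrspFF, Trsp-Ins1KO against TrspFF, both knockouts against TrspFF and Trsp-RIPKO against Trsp-Ins1KO, numbered 379, 416, 847 and 4. They came to 784, 1240, 1729 and 1 with trend and robust, and to 0, 25, 170 and 1 with no filter. A fit of the compared groups alone gave 0, 0 and 319 without a value for both knockouts. Median scaling gave 224 in the Trsp-RIPKO comparison, and in the comparison of the knockouts the filter on all 6 arrays gave 2 and normexp 1. Leaving out each array gave 0 to 495, 0 to 511, 0 to 145 and 0 to 319. With the replicate block these counts were 0, 0, 119 and 0, the count of pathway genes for both knockouts was 0, and no member passed. Slide as a block was not run, since 1 slide holds only TrspFF and the other only the knockouts.

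Pathway genes passing numbered 2, 3 and 4 with trend and robust in the 3 comparisons with TrspFF, 1, 1 and 2 with the filter on all 6 arrays, and 1, 1 and 3 with normexp. For both knockouts they were 2 with the value table under either naming and 0 with median scaling, quantile normalization or no filter, and leaving out an array gave 0 there and 0 to 1 in Trsp-Ins1KO against TrspFF.

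Class medians moved as follows, and the cause was not tested. In Trsp-RIPKO against TrspFF the median of Atf4 and its targets was -0.024 with the mean of probes and 0.16 with median scaling, which shifts all genes by about 0.1. In Trsp-Ins1KO against TrspFF it was 0.23 with median scaling, 0.21 with normexp and 0.016 with quantile normalization, where the ER median was 0.22. For both knockouts it was 0.19 with median scaling and 0.013 with quantile normalization, and for the knockouts against each other -0.033 with quantile normalization. Leaving out each array gave -0.32 to -0.014, 0.20 to 0.43, -0.058 to 0.25 and -0.48 to -0.39 for the ER genes and 0.0031 to 0.051, 0.081 to 0.20, 0.0034 to 0.12 and -0.18 to -0.14 for Atf4 and its targets.

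By its own names, as constructed, the value table swapped the knockouts. ER medians were then 0.35 in Trsp-RIPKO and -0.17 in Trsp-Ins1KO against TrspFF and 0.44 between them, and those of Atf4 and its targets 0.14, 0.046 and 0.16. Against TrspFF, Hspa5 was 0.35, Pdia6 0.15 and Asns 0.14 in Trsp-RIPKO, and -0.17, -0.29 and -0.025 in Trsp-Ins1KO. Between the knockouts all 10 members turned, to 0.68 for Sdf2l1, 0.52 for Hspa5, 0.44 for Pdia6, 0.32 for Ddit3, 0.31 for Phgdh, 0.29 for Hsp90b1, 0.16 for Asns, 0.13 for Herpud1, 0.0018 for Atf4 and -0.26 for Trib3.

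Under the other alternatives, members near 0 turned sign. Asns in Trsp-RIPKO against TrspFF was 0.022 with normexp and 0.085 with median scaling, and -0.00065 for both knockouts with quantile normalization. Atf4, with disagreeing probes, was -0.35, -0.29 and -0.32 with normexp and -0.049, -0.035 and -0.042 with the mean of probes in the comparisons with TrspFF, -0.075 in Trsp-Ins1KO with quantile normalization, and 0.18 with quantile normalization and 0.022 with median scaling between the knockouts. Pdia6 for both knockouts was 0.15 with normexp, 0.025 with median scaling and 0.092 with the mean of probes. Leaving out each array gave -0.068 to 0.16 for Ddit3, -0.018 to 0.14 for Hsp90b1 and -0.082 to 0.034 for Asns in Trsp-RIPKO against TrspFF. It gave -0.00033 to 0.12 for Asns, -0.19 to 0.046 for Pdia6 and -0.058 to 0.25 for Hspa5 for both knockouts, and -0.29 to 0.035 for Herpud1 and -0.051 to 0.050 for Atf4 between the knockouts.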

Other observations

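Xbp1, the ER stress factor left out of the tests by a flag on 1 spot, had 3.46 on the remaining Trsp-RIPKO array, 3.67 and 3.81 in Trsp-Ins1KO, and 3.51 and 3.42 in TrspFF. Both Trsp-Ins1KO arrays were above the other 3, as at Hspa5 and Hsp90b1.

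Among 6568 genes with an SD of at least 0.2 over the arrays, those whose levels were most like the mean of the ER members were Lxn, Sdhaf3, Rims3, Irx3 and Slc35g2. The homeobox gene Irx3 had -1.30 and -1.14 in Trsp-RIPKO, -0.81 and -0.57 in Trsp-Ins1KO, and -0.87 and -1.29 in TrspFF. Most like the mean of Atf4 and its targets were Kcnj12, Kcnj5, Slc35g2, Akr1b10 and Lxn. The potassium channel gene Kcnj5 had -1.57 and -1.49 in Trsp-RIPKO, -0.78 and -0.52 in Trsp-Ins1KO, and -0.98 and -1.39 in TrspFF. Likeness was ranked by Pearson's r over 6 arrays of 3 genotypes, and 85 genes for the ER members and 91 for Atf4 and its targets exceeded an r of 0.95, so the named genes are only the nearest of many.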
